A study of Mus musculus with 4 samples.

Results

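The gasdermin genes of the mouse were examined for peaks of chromatin recovered with the long noncoding RNA Malat1. The family was taken by name: Gsdma, Gsdma2 and Gsdma3 on chromosome 11, Gsdmc, Gsdmc2, Gsdmc3, Gsdmc4 and Gsdmd on chromosome 15, and Gsdme on chromosome 6. These are 9 of the 21631 protein-coding genes annotated on chromosomes 1 to 19 and X. A peak was assigned to a gene when its summit lay in the gene body or within 5 kb of either end, and 22 of the 77823 deposited peaks met this rule. The libraries came from 4T1-TGL, a BALB/c mouse breast cancer cell line labelled wild type, by ChIRP, in which biotinylated antisense oligonucleotides pull down an RNA with the chromatin bound to it. The 4 libraries, 1 each, were Malat1 pull-downs with the probe pools Even and Odd, a LacZ pull-down, LacZ probes being the usual non-targeting control, and an input titled as that of the Even pool. The deposited list compares 1 merged treatment with 1 input. The sources used here do not name the merged pull-downs, so no value below has a replicate error and none separates Malat1 probes from LacZ probes.

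Gasdermins are cytosolic proteins whose N-terminal domain forms pores in membranes once a protease cuts it free from the C-terminal domain. The pores release cytokines and can end in pyroptosis, a lytic form of cell death. The family is known from the skin and gut epithelia (Gsdma and Gsdmc genes), from inflammasome signalling (Gsdmd) and from the switch of apoptosis to lytic death in tumour cells (Gsdme). The peak list reports chromatin recovered at these genes and says nothing of their expression.

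Start sites were available in the RefSeq promoter table (GRCm38.p6) for 3 of the 9 genes, Gsdma3, Gsdmc3 and Gsdme. The 100 bases before each start are shown because these are the promoters that could be placed against the peaks, and none held a summit; CG dinucleotides are in capitals. They lie at chr11:98626249-98626348 on the plus strand, chr15:63878559-63878658 on the minus strand and chr6:50261770-50261869 on the minus strand. The Gsdme start used here, at 50261769, lies inside the gene body used for counting, which runs to 50263857. The Gsdme stretch is thus not upstream of that body.
Gsdma3: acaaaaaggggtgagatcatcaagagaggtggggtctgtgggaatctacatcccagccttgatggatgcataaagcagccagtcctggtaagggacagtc
Gsdmc3: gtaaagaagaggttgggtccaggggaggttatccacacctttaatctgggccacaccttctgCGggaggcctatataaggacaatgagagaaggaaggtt
Gsdme: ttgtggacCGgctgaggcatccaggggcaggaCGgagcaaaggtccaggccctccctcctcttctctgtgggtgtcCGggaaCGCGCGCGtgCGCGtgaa
The Gsdme stretch held 9 CG dinucleotides, a number reached by 22.4% of the 32619 promoters in the table. Gsdmc3 had 1 and Gsdma3 had 0, against a median of 3. The summit nearest to the 300 bp promoter window was 8906 bp away for Gsdme, 12285 bp for Gsdmc3 and 31711 bp for Gsdma3. A promoter window without a summit was the usual case: 426 of the 32619 windows (1.31%) held one.

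A summit fell within the body or its 5 kb margins at 8 of the 9 gasdermin genes, and Gsdma3 had none. Over all protein-coding genes the share was 60.8%. Gene length and regional density both move this share, so each gene was compared with the 1 Mb on either side of its window. The family held 22 summits where the flanks predicted 20.7. Summed over all protein-coding genes, 46189 summits were counted where 44109 were predicted. More summits than predicted were found at 5 genes and fewer at 4, against 41.5% of all protein-coding genes with more than predicted. The median of observed over predicted summits was 1.23 for the 9 genes and 0.765 for all genes. Genes without a summit have a ratio of 0 and lower the median over all genes. The totals do not show this gap, since both lay slightly above their predictions. Neighbouring members share most of their flanks, so these are not 9 independent comparisons.

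None of the 9 genes passed the two-sided exact binomial test against its flanks with Benjamini-Hochberg adjustment over all protein-coding genes, and 0 had an unadjusted p below 0.05. Of all protein-coding genes, 17 (0.0786%) were called higher and 9 (0.0416%) lower at an adjusted p below 0.05, and 5.22% had an unadjusted p below 0.05. The smallest p in the family belonged to Gsdmd (exact binomial p = 0.0516, adjusted 0.955). The adjusted p was 1 for each of the other 8. Peaks are not replicates of a library, and these p-values describe only where the summits of this list lie. The test counts each summit as a separate event, although some lie close together, as at Gsdmc and Gsdma2.

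**Figure D1:**
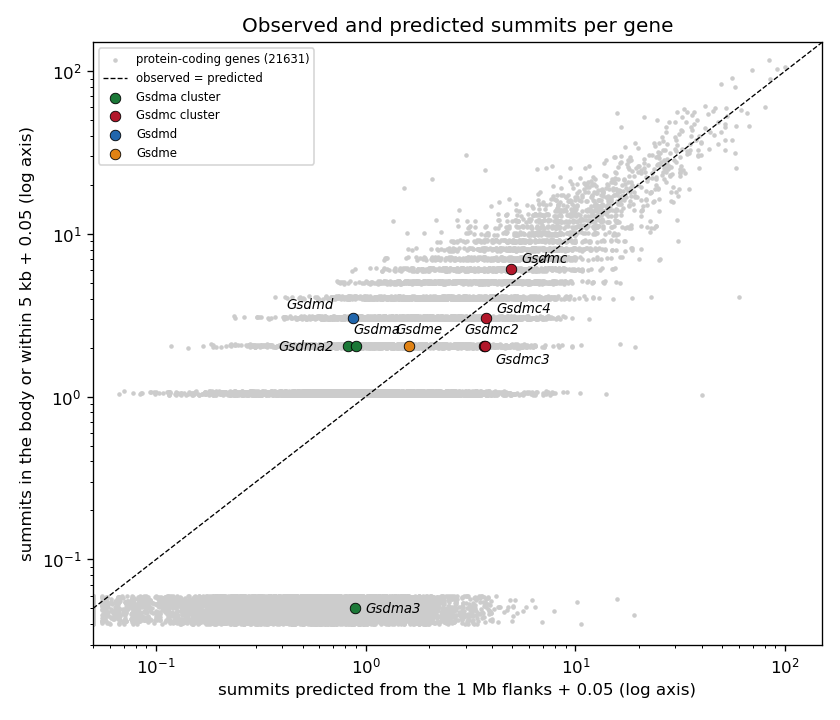
Summits counted at each gene (vertical, log axis) against the number predicted from its 1 Mb flanks (horizontal, log axis), with 0.05 added to both; grey points are the 21631 protein-coding genes, spread slightly in the vertical to separate ties, and coloured points are the 9 gasdermin genes. Gsdmd, at 3 summits against 0.817 predicted, lies farthest above the dashed line of equality, Gsdma3 holds 0, and all 9 lie within the cloud of other genes.

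Peaks at gasdermin genes were small, as in the list as a whole. They held 3 to 21 tags, with a median of 4 against 5 for all peaks. The fewest tags of any peak, 3, were held by 10 of the 22 (45.5%), against 37.2% of all peaks. At least 10 tags were held by 2 of the 22 (9.09%), against 22.4% of all peaks. The median summit height was 3 tags at the members and in the list. The authors' fold enrichment, the height over the local level of the scaled input, ranged from 35.5 to 686 with a median of 74.1, against 133 for all peaks. Because the merged treatment held few tags (851227 after duplicate removal), 3 tags at the summit already give a fold of 179.5 where the input is at the genome mean. The implied input of a peak is its height divided by its fold, in units of the genome mean, and by construction it is at least 1, apart from rounding. It was 2.10 at the median member peak and 1.40 at the median of all peaks.

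The Gsdmc cluster on chromosome 15 held the most summits and the highest and lowest folds of the family. Its 4 genes lie in a row from 63775971 to 63912319, with transcribed pseudogenes between them, Gsdmcl1 among these. The span with 5 kb on both sides held 15 summits, 13 of them in the members' windows, where the flanks predicted 16.9. The ratio was 0.887, with an exact 95% Poisson interval of 0.497 to 1.46 for the counting error of the cluster alone. The many summits go with a dense region: the flanks held 115.5 summits per Mb, against 61.3 on chromosome 15 as a whole. That was 3.21 times the density beside the Gsdma cluster, 2.16 times that beside Gsdmd and 4.91 times that beside Gsdme. The input was also high there, with a median implied input of 4.05 at the 231 flank peaks.

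Gsdmc, the first gene of the cluster, whose human counterpart is cut by caspase-8 in tumour cells, held 6 summits where 4.88 were predicted. A group of 3 lay 1949 to 2521 bp below its lower-coordinate end, with 3, 6 and 3 tags and folds of 43.5, 65.6 and 65.4. A pair lay in the body, 4386 and 4574 bp from that end, with 3 and 4 tags. The strongest, 3139 bp above the higher-coordinate end, held 14 tags with a height of 8 and a fold of 106, below the list median of 133. No peak of Gsdmc thus reached the median fold of the list. Its best fold was exceeded at 86.6% of the protein-coding genes that had a summit.

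Gsdmc2, a paralog expressed in the intestinal epithelium, held 2 summits where 3.61 were predicted. One lay 914 bp below the lower end with 5 tags and a fold of 50.3, and the other 3524 bp inside the gene with 3 tags and a fold of 55.5. A further peak of 3 tags and fold 72.1, in the pseudogene Gsdmcl1, missed the 5 kb limit by 45 bp and was not counted. With it, Gsdmc2 would have had 3 summits, still under the prediction.

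Gsdmc3 carried the strongest peak of the family. It lay at chr15:63856620-63856778 (GRCm38), with its summit 905 bp below the lower-coordinate end of the gene, which is the end of the transcript since Gsdmc3 is read from the minus strand. The peak held 21 tags, a height of 13 and a fold of 686, rank 508 of 77823. A share of 2.18% of the protein-coding genes with a summit had a best peak of higher fold. The other summit of Gsdmc3, 4293 bp inside the body, held 3 tags and had a fold of 35.5, the lowest of the family. The gene thus held the family's extremes 5198 bp apart, and its 2 summits were fewer than the 3.67 predicted.

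The strong Gsdmc3 peak had the lowest implied input among the peaks of the cluster and its flanks. Its implied input was 1.13, against 3.37 at the other Gsdmc3 summit, and no flank peak was that low: the 231 ran from 2.09 to 5.87. At the flank median of 4.05, a height of 13 would give a fold of 192. By height alone, 11 flank peaks were as high or higher, and in the whole list 1778 peaks (2.28%) were. By tags, 38 flank peaks held at least 21. By fold, no flank peak reached it, the highest being 371. Why the input was low at this position was not tested.

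Gsdmc4, the last gene of the row, held 3 summits where 3.71 were predicted. They lay 47 bp below the lower end and 2285 and 4105 bp inside the gene. They held 4, 3 and 3 tags with folds of 70.8, 43.5 and 77.4, and a best fold that 95.9% of genes with a summit exceeded.

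**Figure D2:**
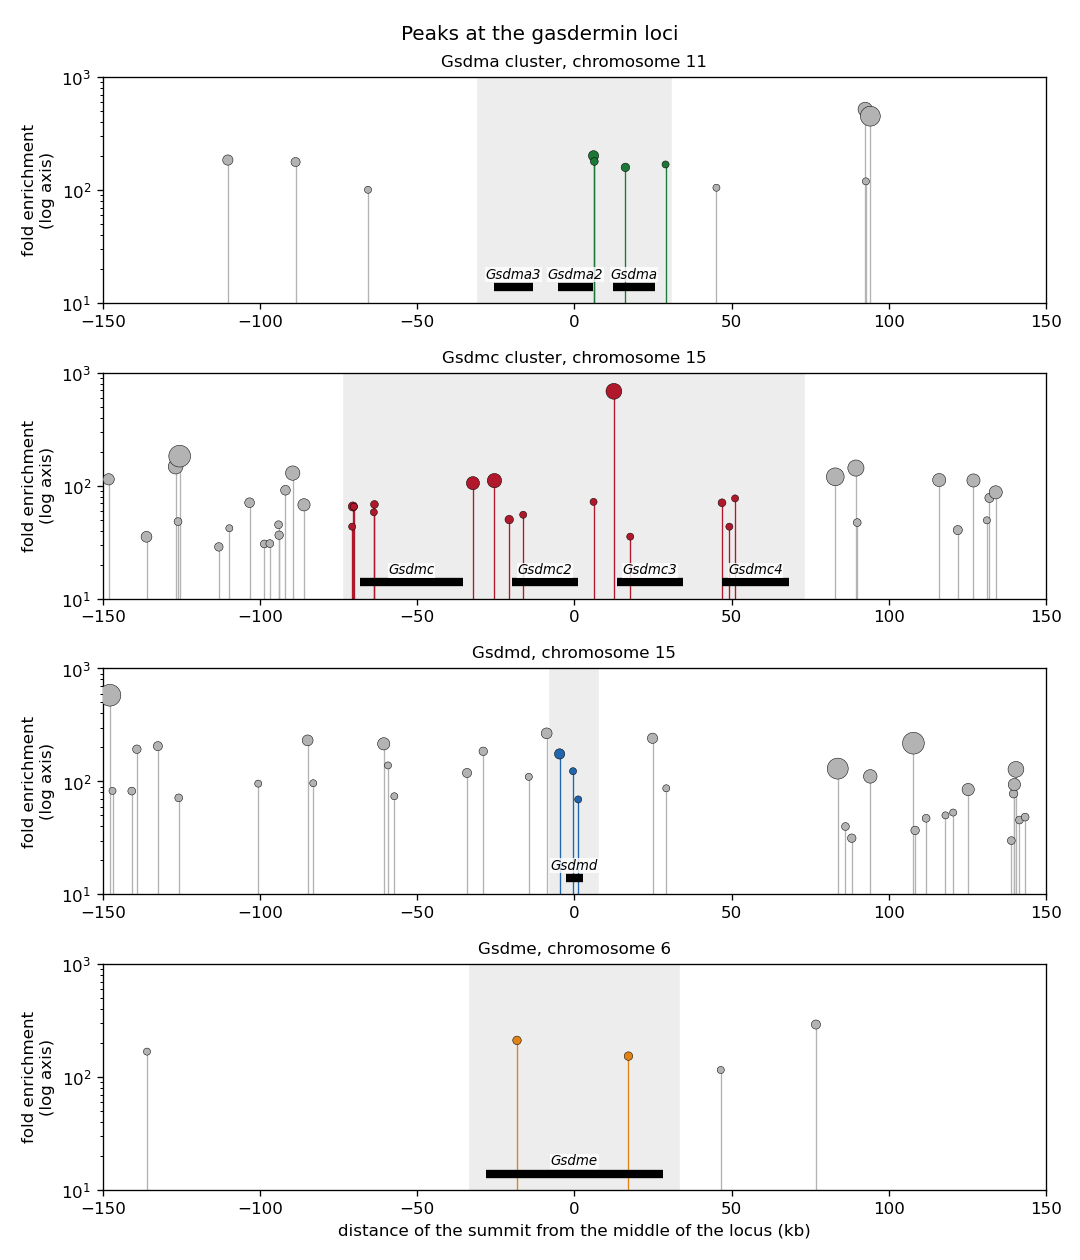
Fold enrichment of each peak (vertical, log axis) against the distance of its summit from the middle of the locus in kb, for the 4 gasdermin loci; coloured points lie in the locus with 5 kb on both sides (grey shading), grey points outside it, point area grows with tags, and black bars are the gene bodies. The Gsdmc3 peak stands at 686 above the other cluster peaks, while the chromosome 11 and chromosome 6 members lie between 153 and 211.

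The body summits of the 4 Gsdmc genes lay near one end of each gene. All 6 of them were within 5 kb of the lower-coordinate end, 2285 to 4574 bp from it, and each of the 4 genes had at least 1 of them. These stretches make up 20.9% of the bodies and were predicted to hold 2.31 summits. The remaining 75.8 kb held 0, where the flank density predicted 8.75. Outside the bodies, 6 summits lay below the lower ends and 1 above a higher end. The nearest one below the lower end was at 905 bp for Gsdmc3 and 914 bp for Gsdmc2, almost the same distance. It was at 47 bp for Gsdmc4 and 1949 bp for Gsdmc, so the 4 genes did not share 1 position. The arrangement of the body summits and the similar distances at Gsdmc2 and Gsdmc3 were noticed in the data and were not tested. The genes are close paralogs, and the sources used here do not say how reads matching several copies were placed, so counts at any single copy are uncertain.

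**Figure D3:**
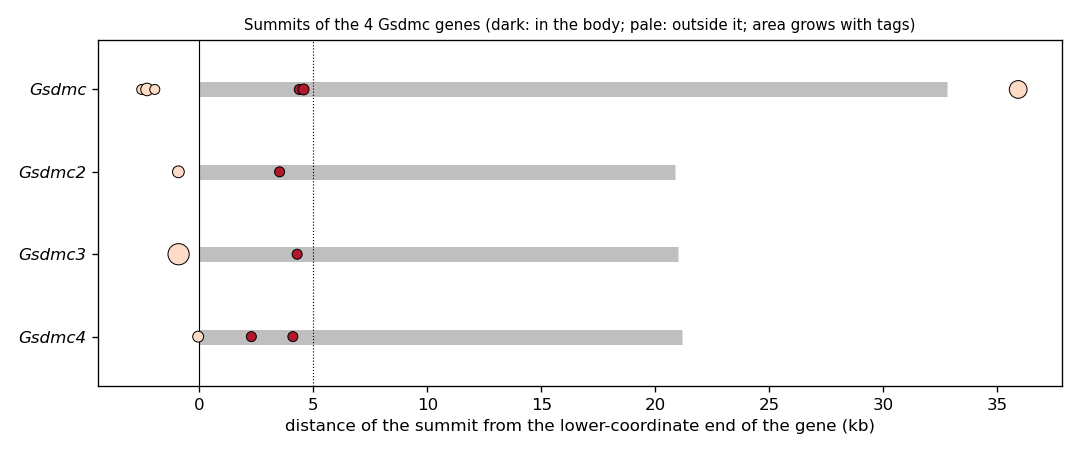
Summits of the 4 Gsdmc genes by their distance in kb from the lower-coordinate end of each gene (horizontal, solid line at 0, dotted line at 5 kb); grey bars are the gene bodies, dark points summits in the body, pale points summits outside it, and point area grows with tags. All 6 body summits lie left of the dotted line, and the largest point is the Gsdmc3 peak of 21 tags.

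Peaks inside the cluster also had fewer tags than those around it. Of the 15 cluster peaks, 8 (53.3%) held 3 tags, against 28 of the 231 flank peaks (12.1%), and the median was 3 tags against 7. The median implied input was lower too, at 2.69 in the cluster and 4.05 in the flanks. It was below 2 at 2 cluster peaks and at 0 flank peaks. The median fold was 65.6 in the cluster and 60.6 in the flanks, so the fold does not show the difference that the tags and the input do. With peaks of more than 3 tags alone, the cluster held 7 summits where 14.9 were predicted, a ratio of 0.471. The part of the local input in the lower tag counts was not tested.

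**Figure D4:**
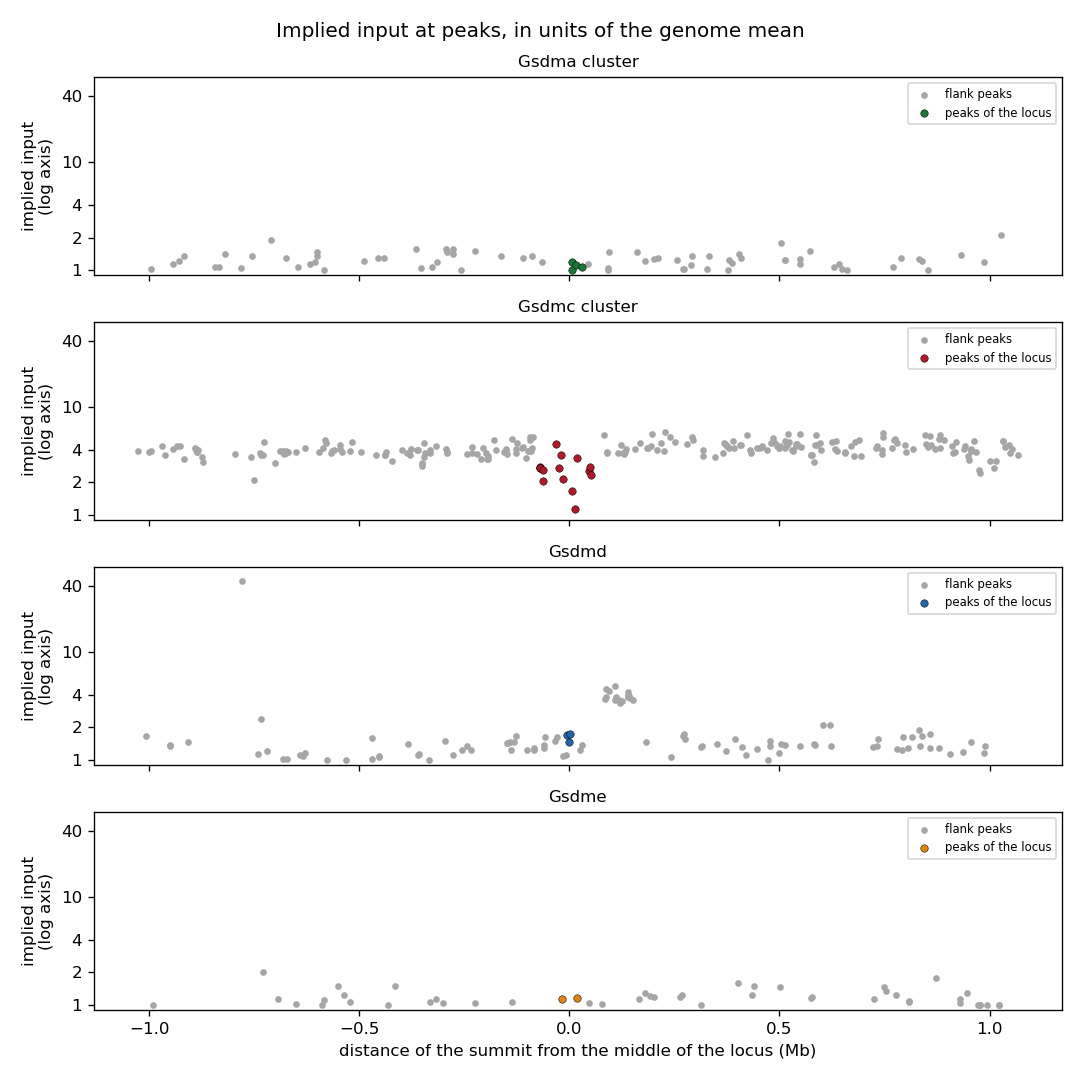
Implied input at each peak in units of the genome mean (vertical, log axis) against the distance of the summit from the middle of the locus in Mb; coloured points are peaks of the locus with 5 kb on both sides and grey points are peaks of the 1 Mb flanks. The flanks of the Gsdmc cluster lie near 4 and its own peaks dip to 1.13, whereas the peaks of the other 3 loci lie between 1 and 2.

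Gsdmd, the gasdermin cut by inflammatory caspases, lies 11.9 Mb further along chromosome 15 (75862144 to 75867408) in a region of lower input. It held 3 summits where 0.817 were predicted, the highest ratio of the family at 3.67, with an exact 95% Poisson interval of 0.758 to 10.7. One summit, of 8 tags, height 5 and fold 175, lay 2073 bp below the lower end. The body held the others, each of 3 tags, with folds of 123 and 69.3. The next peak out, of 9 tags and fold 267, lay 6192 bp below the gene and was not counted. Most of the count came from the weakest class of peak: with more than 3 tags, 1 summit remained where 0.534 was predicted, a ratio of 1.87. With peaks at or above the median fold of the list, 1 remained where 0.42 was predicted, a ratio of 2.38. A ratio above 1 then rests on 1 summit. With the gene body alone, the count was 2 against 0.282 (exact binomial p = 0.0337, adjusted 0.937), and over all settings tried the adjusted p ran from 0.793 to 1.

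The implied input at the Gsdmd summits was 1.46 to 1.73, against medians of 1.25 in its lower flank and 1.46 in its higher flank. From 81.1 to 149 kb above the gene, 17 peaks had an implied input of 3.38 to 4.87, a level like that beside the Gsdmc cluster. Gsdmd itself lay outside this block. Of its neighbours, Zc3h3 held 8 summits against 5.37 predicted and Mroh6 held 2 against 1.02, both with an adjusted exact binomial p of 1.

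The Gsdma cluster on chromosome 11 (98626349 to 98677708), known from skin and upper gut epithelium, held 4 summits where 2.21 were predicted. The ratio of 1.81 had an exact 95% Poisson interval of 0.493 to 4.64, and thus included 1. The flanks held 36.0 summits per Mb, under the 42.4 of the chromosome. All 4 peaks had an implied input of 1.00 to 1.19 and a fold of 159 to 202, each above the list median of 133, with heights of 3 or 4 tags.

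Gsdma2 held 2 of these summits against 0.775 predicted. They lay 250 bp apart, 145 and 395 bp beyond the higher-coordinate end, with 8 and 4 tags and folds of 202 and 179.5. The second is the fold that 3 tags give at the genome mean input. Gsdma held 2 against 0.853 predicted, one 3914 bp inside the body with 5 tags and a fold of 159, and one 3312 bp beyond the higher end with 3 tags and a fold of 169. The latter also lay 1534 bp from Psmd3, a proteasome subunit gene, and so belongs to the windows of both genes. Gsdma3, in which mutations cause hair loss in mice, held 0 against 0.842 predicted, and the nearest summit was 19308 bp from its body. With under 1 summit predicted, a count of 0 was not distinguishable from the flanks at this depth.

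Gsdme, a deafness gene in humans, is the longest member at 56457 bp on chromosome 6. It held 2 summits where 1.56 were predicted, a ratio of 1.28 with an exact 95% Poisson interval of 0.155 to 4.63. Both lay in the body and held 5 tags each, with heights of 4 and 3 and folds of 211 and 153. The implied input was 1.13 and 1.17. Since Gsdme is read from the minus strand, the summit at chr6:50252694-50252851 is the one nearer to the start of the gene. The flanks were the sparsest of the 4 loci, with 23.5 summits per Mb. Mpp6, the neighbour on the lower side, held 0 summits against 2.23 predicted, and Osbpl3 on the higher side held 5 against 4.24.

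Among the 4 loci, the Gsdmc cluster had the lowest median fold and the highest median implied input. Median heights were 3 at the Gsdma cluster, the Gsdmc cluster and Gsdmd, and 3.5 at Gsdme. Median folds were 174, 65.6, 123 and 182 in that order, with median implied inputs of 1.10, 2.69, 1.71 and 1.15. Of the 13 peaks assigned to Gsdmc genes, 1 reached the median fold of the list, against 7 of the 9 at the other members. Fold divides the height by the input, so it does not by itself rank the loci by tags recovered.

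The 8 nearest protein-coding neighbours were counted in the same way. Cyrib, a regulator of actin branching that lies 16774 bp above the Gsdmc cluster, held 17 summits against 16.6 predicted. On the lower side the nearest protein-coding gene was Myc, 1785609 bp away, with 2 against 1.98. Lrrc3c, below the Gsdma cluster, held 0 against 0.435, and Psmd3 held 2 against 0.867. None of the 8 neighbours was called, and their smallest unadjusted exact binomial p was 0.22.

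Genes that act with gasdermins were examined as a list of 27: the paralog Pjvk, proteases that cut gasdermins, inflammasome genes, the released cytokines and the membrane rupture gene Ninj1. Of these, 15 (55.6%) had a summit, against the 60.8% of all protein-coding genes. They held 34 summits where 38.6 were predicted, and 0 were called in either direction. With at most 3.72 predicted at any of them, at Nek7, a call of lower was out of reach here too. The smallest p was that of Il1b, with 3 summits against 0.697 (exact binomial p = 0.0355, adjusted 0.869). The highest folds belonged to Aim2, a sensor of cytosolic DNA (1088, 134 tags), Il1b (279, 11 tags), the neutrophil protease gene Elane (264, 9 tags), Casp8 (239, 7 tags), Il18 (191, 5 tags) and the Nlrp3 partner gene Nek7 (173, 6 tags). Casp1 and Casp4, whose products cut Gsdmd, held 0 summits where 0.441 and 0.873 were predicted (exact binomial p = 1 for both), so that a count of 0 was not distinguishable from the flanks. Pjvk held 1 summit against 0.795 predicted.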

How the data were processed

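ChIRP libraries of 4T1-TGL cells were sequenced as single reads of 76 nt, per the labels' protocols. Per the file headers, the authors ran MACS 1.4.4 on 1 merged treatment (988411 tags, 851227 after duplicate removal) and 1 input (52861677 and 50030325), scaled to the treatment, with a p cutoff of 1e-05. Per the submitters' processing notes, coordinates are of mm10 (GRCm38). No aligner is named in the sources used here. Deposited values are the count of tags per peak, the fold enrichment (a ratio), a score of 10 times the negative log10 of the p, the summit signal (pileup height), and a false discovery rate of 0 percent for every peak. Each value is the authors' own for that peak and was used only within this list.

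Implied input is height over fold over the genome-wide mean background of 0.0167 tags per 53 bp, for an effective genome of 2.7 gigabases. The 53 bp is the value d in the MACS header, not a measured fragment length. It is shorter than the reads of 76 nt, and the header gives a tag size of 25. Genes came from RefSeq (GRCm38.p6), which in the table used has no strand or exons. For each of 21631 protein-coding genes, summits in the body and 5 kb on both sides were tested against the 1 Mb beyond on each side by a two-sided exact binomial test (scipy 1.17.1), adjusted by Benjamini-Hochberg over all genes. The test was tried on simulated data in which counts were only raised. The raised genes all had more predicted summits than the Gsdma genes, Gsdmd and Gsdme. The simulation therefore does not cover lowered counts or predictions as small as theirs. All 9 members and the nearest protein-coding neighbours are named; of the pathway list, the 6 with the highest fold and any gene called were to be named, and Il1b, Pjvk, Casp1 and Casp4 were singled out besides for their values or roles. The members and lists were chosen with earlier results of these data known. Intervals cover counting error only and, like the test, treat summits as independent even where they lie close together. Peak and protein sequences were not used here. Alternatives varied the window, the flanks, the peak threshold and the rule that places a peak.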

Additional observations from a re-analysis of the deposited data

How the results depend on the processing

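Under all 12 alternatives, 0 of the 9 genes were called against their flanks, and the smallest adjusted p was 0.793. At most 2 had an unadjusted exact binomial p below 0.05, with 10 kb around the body. Over all protein-coding genes, 26 were called in the reported setting, 0 at or above the median fold, 11 with 500 kb flanks, 12 at a score of at least 100, 16 with the gene body alone, 43 with 10 kb around the body, 51 and 57 with the higher or lower flank alone and 65 with 2 Mb flanks. The number of gasdermin genes with a summit was 8, and it was 5 at or above the median fold and 5 at a score of at least 100. It stayed within 1.5 times under the other 5 alternatives. The observed over predicted ratio of the Gsdmc cluster fell from 0.887 to 0.471 with peaks of more than 3 tags, 0.456 at or above the median fold, and 0.369 at a score of at least 100. These are 7 summits against 14.9 predicted, 1 against 2.20 and 3 against 8.12, in place of 15 against 16.9, and the cause was not tested. Under the other 9 alternatives it remained inside its counting interval, the highest being 1.05. Ratios of the other loci stayed inside their intervals under all 12. They ran from 1.02 to 2.77 for the Gsdma cluster, 1.87 to 7.10 for Gsdmd and 0.971 to 3.76 for Gsdme. At Gsdme the higher flank alone gave the value under 1. The intervals of these loci rest on 4, 3 and 2 summits and are wide, so that staying inside them says little about stability. Using the flank of lower or of higher coordinates alone was an alternative chosen after seeing the data. Counts of 0 to 6 summits per gene and 1 merged treatment limit what can be resolved. No paired analysis was possible because the peak list holds 1 merged treatment and no values per library.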
